A study of Mus musculus with 6 samples.

Results

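The genes described here are Bdnf and Ntf3, which encode secreted neurotrophins, their receptor genes Ntrk2, Ntrk3 and Ngfr, and Gdnf with its receptor genes Gfra1 and Ret. They were chosen by gene symbol, and all 8 have a row among the 24421 genes of the count table. Of these, 6 had enough counts to be tested, among 14852 tested genes in all. Gdnf, Gfra1 and Ret belong to a separate growth factor family and are not neurotrophins in the strict sense. The libraries are from C57BL/6 cortex taken after MCAO, the occlusion of the middle cerebral artery, which models ischaemic stroke. The group NeuroD1_MCAO received NeuroD1, a transcription factor that drives cells towards a neuronal fate, and GFP_MCAO received green fluorescent protein (3 libraries each). Both groups had MCAO, so no comparison with uninjured cortex is made. The title calls the treatment an intravenous gene therapy. No label gives the vector, its promoter, the cells it reached, the time after MCAO, or the age and sex of the mice. Nor do the labels tie each library to its own animal, so the spread that the p-values rest on may be partly technical.

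Neurotrophins are small secreted proteins that act as pairs of identical chains on Trk receptor tyrosine kinases. BDNF binds TrkB (Ntrk2) and NT-3 (Ntf3) binds TrkC (Ntrk3), and both signal for survival, growth and synaptic strength. The p75 receptor (Ngfr) binds every neurotrophin and their uncut precursors, and in other settings can signal for cell death or limit growth. GDNF is captured by the lipid-anchored co-receptor GFRα1 (Gfra1), which then engages the kinase RET. In cortex Bdnf is transcribed mostly by excitatory neurons and follows their activity. Ntrk2 is abundant in neurons and in astrocytes, which make mainly a truncated form without the kinase. Counts per gene pool all transcripts, so full-length and truncated TrkB or TrkC could not be told apart.

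The promoter windows shown here let the receptor and ligand genes be read beside the delivered factor, because NeuroD1 binds E-boxes, whose letters are CANNTG. RefSeq (GRCm38.p6) start sites gave 14 windows of 250 bases for 6 of the 8 genes, and 7 of the windows belong to Bdnf, which has many alternative first exons. Both strands were searched. An E-box stood in 13 of the 14 windows, against 66.2% of all 32851 windows of the same length. The spelling CAGATG, preferred by NeuroD-family factors and itself an E-box, stood in 3 windows, 1 each of Bdnf, Ntf3 and Ntrk2, against 14.4% of all windows. TGACG, the core of a cAMP response element, stood in 2 windows, 1 each of Bdnf and Gdnf, against 17.8% of all windows. The full element TGACGTCA was in 0 of the 14 windows and in 1.55% of all. Capitals mark E-boxes in the stretches below, which run 5′ to 3′ along the gene and leave out bases annotated as exon.
Bdnf, window at the third start, chr2:109692186-109692435, plus strand: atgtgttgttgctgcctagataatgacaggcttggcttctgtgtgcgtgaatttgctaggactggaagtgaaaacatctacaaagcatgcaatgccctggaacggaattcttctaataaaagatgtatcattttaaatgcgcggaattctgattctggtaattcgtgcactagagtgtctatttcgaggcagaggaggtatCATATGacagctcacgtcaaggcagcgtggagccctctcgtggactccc
Bdnf, window at the last start, chr2:109722671-109722920, plus strand: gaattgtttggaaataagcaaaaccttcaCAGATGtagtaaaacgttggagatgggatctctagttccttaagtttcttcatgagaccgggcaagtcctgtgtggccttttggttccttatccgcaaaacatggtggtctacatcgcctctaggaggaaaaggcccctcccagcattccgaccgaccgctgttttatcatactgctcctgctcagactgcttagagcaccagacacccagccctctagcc
Ntrk2, chr13:58806319-58806568, plus strand: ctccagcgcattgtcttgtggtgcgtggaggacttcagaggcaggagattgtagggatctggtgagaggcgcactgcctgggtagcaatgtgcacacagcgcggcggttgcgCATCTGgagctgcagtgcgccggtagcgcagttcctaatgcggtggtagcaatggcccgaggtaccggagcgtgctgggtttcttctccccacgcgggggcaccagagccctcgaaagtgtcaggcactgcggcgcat
Ngfr, chr11:95587736-95587948, minus strand: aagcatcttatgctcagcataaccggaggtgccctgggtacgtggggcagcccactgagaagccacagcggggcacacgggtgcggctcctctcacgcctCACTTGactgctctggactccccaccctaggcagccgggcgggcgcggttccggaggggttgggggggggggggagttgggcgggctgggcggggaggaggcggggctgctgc
The stretch at the third Bdnf start holds CATATG and, shortly after it, cgtca, the reverse complement of TGACG. The stretch at the last Bdnf start holds CAGATG, the Ntrk2 stretch holds its reverse complement CATCTG, and the Ngfr stretch holds CACTTG. A match is only a match of letters, and the data hold no measure of binding.

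Total counts were 10843273 to 13440244 in the NeuroD1 libraries and 7753101 to 9698795 in the GFP libraries, so every NeuroD1 library was deeper. Neurod1 itself stood at 48.5, 14.6 and 38.4 CPM (library-size scaled counts, with TMM factors) in NeuroD1 replicates 1, 2 and 3. In the GFP libraries Neurod1 stood at 3.87 to 6.48 CPM. Cortical excitatory neuron markers, 6 genes such as Slc17a7 and Tbr1, summed to 1768 to 4713 CPM with NeuroD1 and 2740 to 5308 CPM with GFP, and none of them was at 0. Striatal markers were also present (96.5 to 211.7 CPM and 146.7 to 203.5 CPM). A pair of libraries stood apart. NeuroD1 replicate 2 had the lowest summed neuronal markers (1743 CPM) and the highest fibroblast and myeloid markers (6395 and 8122 CPM). That library also had the lowest Neurod1 of the NeuroD1 group (14.6 CPM). GFP replicate 2 had the highest oligodendrocyte and choroid plexus markers (20182 and 816.5 CPM). Over all genes, edgeR's quasi-likelihood test called 0 genes at an adjusted p under 0.05 (0%), limma-voom called 0 and DESeq2 called 1366 (8.91% of 15332). Without adjustment, 3564 genes (24.0%) had an edgeR p under 0.05.

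Ntrk2 was by far the most abundant of the 8 genes and Gdnf the least, on a scale of CPM per kilobase of annotated exon, which allows levels of different genes to be set side by side. The NeuroD1 means ran from Ntrk2 (37.3) through Gfra1 (11.1), Ngfr (1.96), Bdnf (1.75), Ntrk3 (1.29), Ret (0.640) and Ntf3 (0.395) to Gdnf (0.301). In this order the ranges of Ngfr, Bdnf and Ntrk3 overlapped from neighbour to neighbour, as did those of Ret, Ntf3 and Gdnf. The GFP means ran from Ntrk2 (40.8) through Gfra1 (13.4), Ntrk3 (2.27), Bdnf (0.949), Ret (0.516), Ngfr (0.484) and Ntf3 (0.453) to Gdnf (0.148). Here Ret, Ngfr and Ntf3 overlapped with their neighbours, and the others did not. Ngfr therefore had rank 3 with NeuroD1 and rank 6 with GFP, and Ntrk3 had rank 5 with NeuroD1 and rank 3 with GFP. Without NeuroD1 replicate 2, a choice made after seeing the data, Ngfr had rank 5 with NeuroD1 (1.162), below Bdnf (2.32) and Ntrk3 (1.40). Exon length is the union of all annotated exons, 30170 bases for Ntrk3 and 19292 for Ntrk2, so the levels of genes with long alternative ends are understated on this scale.

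**Figure D1:**
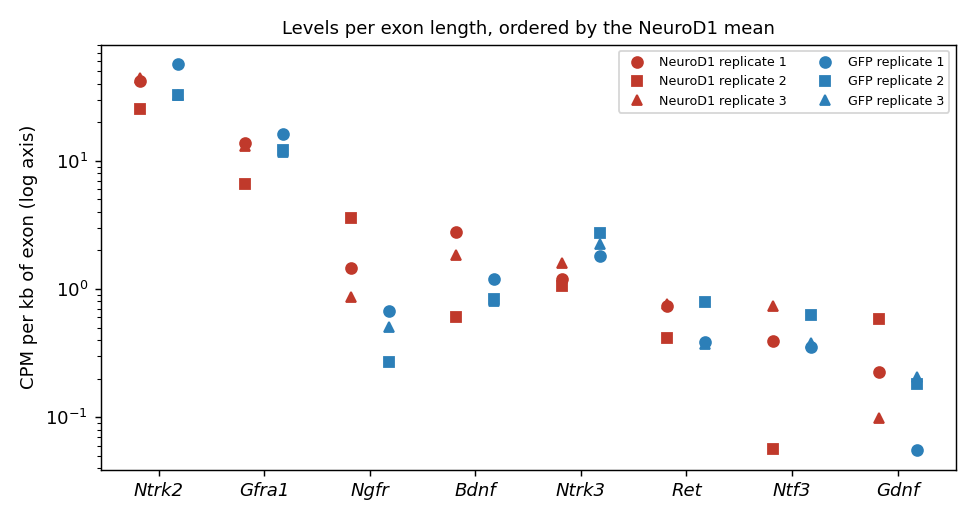
Level of each gene in CPM per kilobase of annotated exon (log axis), 1 symbol per library, NeuroD1 left of GFP. Ntrk2 and Gfra1 lie above all other genes in both groups, and Ngfr is the gene whose NeuroD1 libraries all lie above its GFP libraries.

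Of the 6 tested genes, 2 had an unadjusted edgeR p under 0.05, Ngfr higher and Ntrk3 lower with NeuroD1, and the groups of the same 2 genes did not overlap. Across all tested genes 24.0% had such a p and 29.6% did not overlap between groups, so 2 of 6 is near what the whole table shows. None of the 6 passed at an adjusted p under 0.05 in edgeR or limma-voom. DESeq2 called 1, Ngfr, against 8.91% of 15332 genes. At an unadjusted p under 0.05 DESeq2 and limma-voom each gave the same 2 genes, against 21.2% and 23.8% of all genes. The median log2 fold change (NeuroD1 over GFP) was 0.10 over the 6 genes and 0.02 over all 14852.

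Ngfr (chromosome 11, 95568818 to 95587735, minus strand, GRCm38), the p75 receptor gene, had the largest fold difference of the tested receptors. It was at 5.05, 12.3 and 2.96 CPM in NeuroD1 replicates 1, 2 and 3 (67, 127 and 33 counts), against 2.33, 0.935 and 1.74 CPM in GFP replicates 1, 2 and 3 (23, 7 and 16 counts). Every NeuroD1 library lay above every GFP library, and NeuroD1 replicate 2 was the highest by a wide margin. The means were 6.77 ± 4.90 CPM with NeuroD1 and 1.67 ± 0.70 CPM with GFP (SD, n = 3 each), and the fitted fold was 3.97. The log2 fold change was 1.99 (SE 0.59, 95% interval 0.64 to 3.34), with an adjusted p of 0.140 by edgeR's quasi-likelihood test, 0.173 by limma-voom and 0.0220 by DESeq2, within a range of 0.0023 to 0.412 over 19 alternatives. The exact two-sided permutation test gave p = 0.1, the smallest that 3 against 3 allows.

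The size of the Ngfr difference rested partly on NeuroD1 replicate 2. Without it the fold was 2.37 (log2 1.25, adjusted p = 0.179 by edgeR), and without any other single library the log2 value lay between 1.72 and 2.35. The DESeq2 call was lost without NeuroD1 replicate 1, NeuroD1 replicate 2, GFP replicate 2 or GFP replicate 3 (adjusted p = 0.0720, 0.173, 0.174 and 0.115). Fibroblast markers, of which 6 of 8 were higher and 1 lower at an unadjusted p under 0.05, also peaked in NeuroD1 replicate 2. They summed to 3854, 6395 and 1888 CPM in NeuroD1 replicates 1, 2 and 3, against 1940, 1619 and 2272 CPM in GFP replicates 1, 2 and 3. The sums overlapped between the groups. Lum, Dcn and Pdgfra, 3 of the 8 markers, were higher in every NeuroD1 library than in any GFP library, and 1 marker was lower in every NeuroD1 library. Over all tested genes, 14.2% were higher and 15.3% lower without overlap. Pdgfra is also among the 6 oligodendrocyte precursor markers, which summed to 495 to 698 CPM with NeuroD1 and 401 to 465 CPM with GFP. Of these precursor markers, 3 were higher and 0 lower at an unadjusted edgeR p under 0.05. Myeloid markers summed to 2608 to 8122 CPM with NeuroD1 and 828 to 2212 CPM with GFP, with 7 of 8 higher by the same criterion. Markers of proliferating cells summed to 329.5, 637 and 179.5 CPM in NeuroD1 replicates 1, 2 and 3, against 104, 131 and 125.6 CPM in GFP replicates 1, 2 and 3, with no overlap and the same highest library as Ngfr, and 4 of 5 were higher by the same criterion. The 6 peripheral glia markers, some of which also mark oligodendrocytes, summed to 2643 to 2704 CPM with NeuroD1 and 3098 to 4252 CPM with GFP, and 0 of 4 tested had an unadjusted p under 0.05. Of these markers, Pmp2 had 0, 3 and 1 counts in NeuroD1 replicates 1, 2 and 3 and was listed at 0 in every GFP library. The part of fibroblasts, oligodendrocyte precursors, myeloid or proliferating cells in the Ngfr difference was not tested. In bulk tissue, more cells of a type and more RNA per cell cannot be told apart, and this holds for every result here.

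Ntrk3 (chromosome 7, 78175959 to 78738012, minus strand), the gene of the NT-3 receptor TrkC, was lower with NeuroD1. It stood at 36.001, 32.0 and 48.5 CPM in NeuroD1 replicates 1, 2 and 3, against 55.0, 83.2 and 67.5 CPM in GFP replicates 1, 2 and 3. The highest NeuroD1 library was below the lowest GFP library. The means were 38.8 ± 8.58 CPM with NeuroD1 and 68.6 ± 14.1 CPM with GFP (SD, n = 3 each), which is 1.76-fold lower with NeuroD1. The log2 fold change was -0.82 (SE 0.24, 95% interval -1.37 to -0.27), with an adjusted p of 0.140 by edgeR's quasi-likelihood test and 0.0503 by DESeq2, within a range of 0.0137 to 0.412 over 20 alternatives. Leaving out any 1 library kept the direction, with log2 values from -1.003 to -0.66 and an unadjusted edgeR p of at most 0.0383. With DESeq2, Ntrk3 was called without GFP replicate 1 and without NeuroD1 replicate 3 (adjusted p = 0.0279 and 0.0137).

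Endothelial and oligodendrocyte markers had lower sums with NeuroD1, as Ntrk3 had. The 7 endothelial markers summed to 192 to 360.2 CPM with NeuroD1 and 463 to 715.5 CPM with GFP, and 6 of 7 were lower at an unadjusted p under 0.05. The 6 oligodendrocyte markers summed to 6514 to 8948 CPM with NeuroD1 and 10258 to 20182 CPM with GFP, and 3 of 6 were lower. GFP replicate 2 was highest in both lists and in Ntrk3, and the same held for several other lists. Reactive astrocyte markers summed to 3514 to 5361 CPM with NeuroD1 and 5984 to 7922 CPM with GFP. Of these 6 markers, 1 was higher and 1 lower at an unadjusted edgeR p under 0.05. Peripheral glia, pericyte and smooth muscle, and choroid plexus markers also had their highest sums in GFP replicate 2. Neuronal markers differed by less than the spread between libraries, at 4146, 1743 and 4853 CPM in NeuroD1 replicates 1, 2 and 3 and 4689, 2398 and 3429 CPM in GFP replicates 1, 2 and 3, with 0 of 7 at an unadjusted p under 0.05. The part of these cell types in the Ntrk3 difference was not tested.

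**Figure D2:**
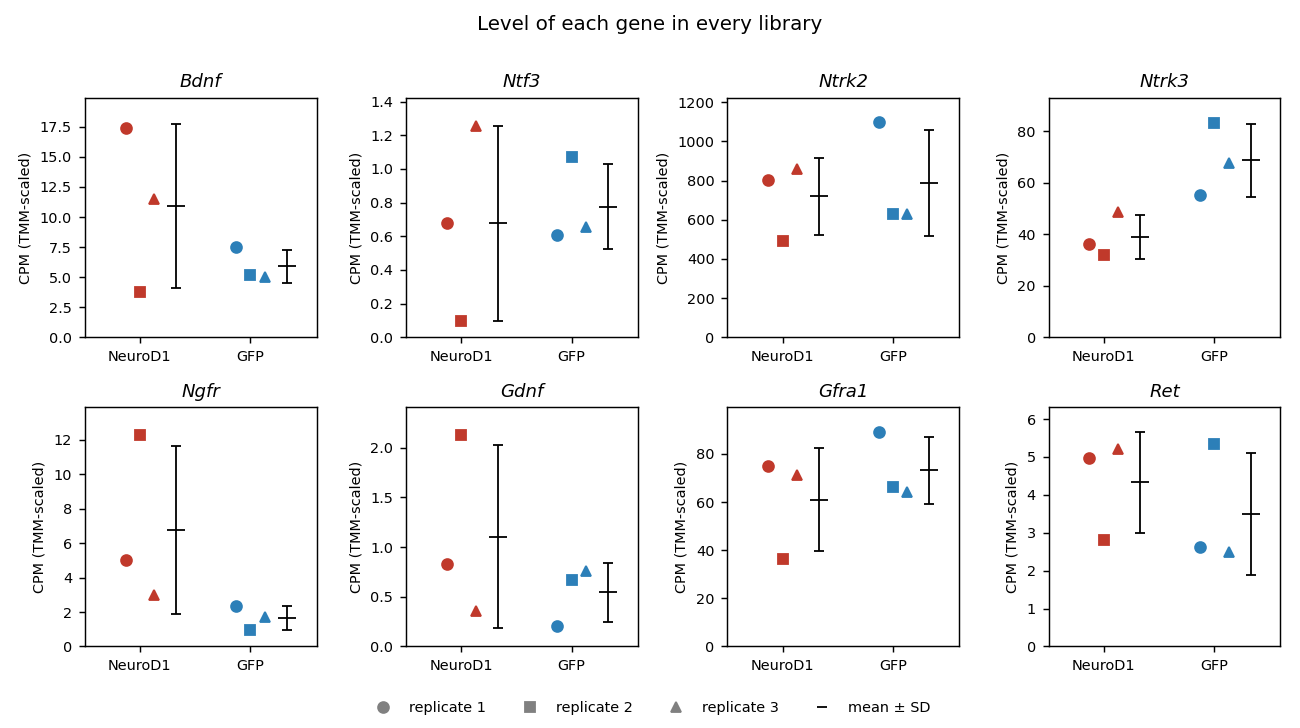
CPM of each of the 8 genes, 1 symbol per library, with mean ± SD (n = 3) beside it, NeuroD1 left of GFP; vertical scales differ between panels and start at 0. The groups separate for Ngfr and Ntrk3, and NeuroD1 replicate 2 is the lowest of its group for Bdnf, Ntf3, Ntrk2, Ntrk3, Gfra1 and Ret and the highest for Ngfr and Gdnf.

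Bdnf (chromosome 2, 109674700 to 109727007, plus strand) was high in 2 of the 3 NeuroD1 libraries. It had 17.4, 3.77 and 11.5 CPM in NeuroD1 replicates 1, 2 and 3 (231, 39 and 128 counts), against 7.49, 5.21 and 4.998 CPM in GFP replicates 1, 2 and 3 (74, 39 and 46 counts). Replicates 1 and 3 of NeuroD1 lay above every GFP library, and replicate 2 lay below them all. The means were 10.9 ± 6.83 CPM with NeuroD1 and 5.90 ± 1.38 CPM with GFP (SD, n = 3 each), a fitted fold of 1.85. The log2 fold change was 0.88 (SE 0.50, 95% interval -0.27 to 2.03), with an adjusted p of 0.304 by edgeR's quasi-likelihood test, within a range of 0.0210 to 0.805 over 20 alternatives, and the exact permutation p was 0.4.

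The Bdnf difference also moved with NeuroD1 replicate 2. Without that library the fold was 2.45 (log2 1.29), with an unadjusted p of 0.00309 and an adjusted p of 0.153 by edgeR and an adjusted p of 0.0210 by DESeq2. Without NeuroD1 replicate 1 the fold was 1.30 (log2 0.38). NeuroD1 replicate 2 had the lowest neuronal marker sum of the 6 libraries. The neuronal sums of NeuroD1 replicates 1 and 3 lay within or just above the GFP range. Oligodendrocyte precursor markers summed to 668, 495 and 698 CPM in NeuroD1 replicates 1, 2 and 3, against 401 to 465 CPM with GFP. The part of either cell type in the Bdnf values was not tested. Bdnf shares 896 bases of exon with the antisense gene Gm45346, which is not a row of the table, and the strand setting of the counting is not given in the sources used here, so reads of the 2 genes cannot be told apart.

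Ntrk2 (chromosome 13, 58806569 to 59133970, plus strand), the BDNF receptor gene, did not separate the groups. It had 804, 492 and 861 CPM in NeuroD1 replicates 1, 2 and 3, against 1099.6, 631 and 631 CPM in GFP replicates 1, 2 and 3. Each group had 1 library away from the other 2, a low one in NeuroD1 (replicate 2) and a high one in GFP (replicate 1). The log2 fold change was -0.13 (SE 0.34, 95% interval -0.91 to 0.65; adjusted p = 0.833 by edgeR's quasi-likelihood test), so differences within these bounds could not be told from none. Its sign turned to positive without NeuroD1 replicate 2 (0.09) or without GFP replicate 1 (0.17). Astrocyte markers had their lowest and highest sums in the same libraries as Ntrk2, at 6205, 3754 and 6541 CPM in NeuroD1 replicates 1, 2 and 3 and 9981, 5857 and 4746 CPM in GFP replicates 1, 2 and 3. Excitatory neuron markers also had their lowest and highest sums there, at 3224, 1768 and 4713 CPM in NeuroD1 replicates 1, 2 and 3 and 5308, 2740 and 3159 CPM in GFP replicates 1, 2 and 3. The part of either cell type in the Ntrk2 values was not tested.

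Ntf3 (chromosome 6, 126101412 to 126166910, minus strand) was close to the limit of detection. It had 9, 1 and 14 counts in NeuroD1 replicates 1, 2 and 3, against 6, 8 and 6 counts in GFP replicates 1, 2 and 3. These correspond to 0.677 ± 0.580 CPM with NeuroD1 and 0.776 ± 0.254 CPM with GFP (SD, n = 3 each), where 3 counts are worth 0.226 to 0.401 CPM depending on the library. The gene did not pass the filter on low counts. With no filter its log2 fold change was -0.14 (95% interval -1.83 to 1.55), so a difference in the TrkC ligand was not detectable at this depth.

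Of the GDNF genes, Gdnf itself (chromosome 15, 7810846 to 7837575, plus strand) was as scarce. It had 11, 22 and 4 counts in NeuroD1 replicates 1, 2 and 3, against 2, 5 and 7 counts in GFP replicates 1, 2 and 3. Replicates 1 and 2 of NeuroD1 were above every GFP library on the CPM scale, replicate 2 by the most, and replicate 3 lay within the GFP range. The means were 1.11 ± 0.917 CPM with NeuroD1 and 0.544 ± 0.299 CPM with GFP (SD, n = 3 each). With no filter the log2 fold change was 1.04 (95% interval -0.68 to 2.76), with an adjusted p of 0.466 by edgeR's quasi-likelihood test.

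Gfra1 (chromosome 19, 58235604 to 58455909, minus strand), the co-receptor gene, was well expressed in both groups. It had 75.2, 36.3 and 71.4 CPM in NeuroD1 replicates 1, 2 and 3, against 89.3, 66.4 and 64.2 CPM in GFP replicates 1, 2 and 3. Outside NeuroD1 replicate 2, which was the lowest, the libraries of the groups lay among each other. The log2 fold change was -0.27 (SE 0.30, 95% interval -0.95 to 0.41; adjusted p = 0.591 by edgeR's quasi-likelihood test), and without NeuroD1 replicate 2 it was 0.0040. Gfra1 shares 416 bases of exon with the antisense gene Gm16277, which also has no row.

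Ret (chromosome 6, 118151745 to 118197718, minus strand), the kinase through which GDNF signals, was low. It had 4.97, 2.81 and 5.21 CPM in NeuroD1 replicates 1, 2 and 3 (66, 29 and 58 counts), against 2.63, 5.34 and 2.50 CPM in GFP replicates 1, 2 and 3 (26, 40 and 23 counts). The single highest value was in GFP replicate 2. The log2 fold change was 0.32 (SE 0.43, 95% interval -0.65 to 1.30; adjusted p = 0.654 by edgeR's quasi-likelihood test), and it was 0.75 without GFP replicate 2, a fold of 1.69 against 1.25 with all libraries. Per kilobase, Gfra1 was far above Ret in both groups, at 11.1 against 0.640 with NeuroD1 and 13.4 against 0.516 with GFP.

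**Figure D3:**
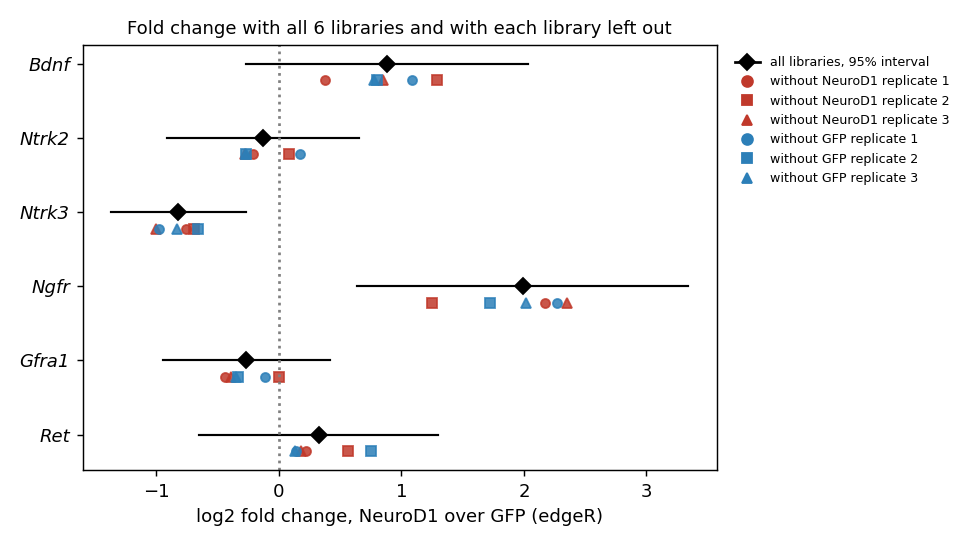
Log2 fold change of the 6 tested genes (NeuroD1 over GFP, edgeR) with its 95% interval (black) and, under it, the value with each library left out (red for NeuroD1, blue for GFP libraries). The intervals of Ngfr and Ntrk3 lie off 0; those of Bdnf, Ntrk2, Gfra1 and Ret span it, and the red squares show how far the values move without NeuroD1 replicate 2.

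**Figure D4:**
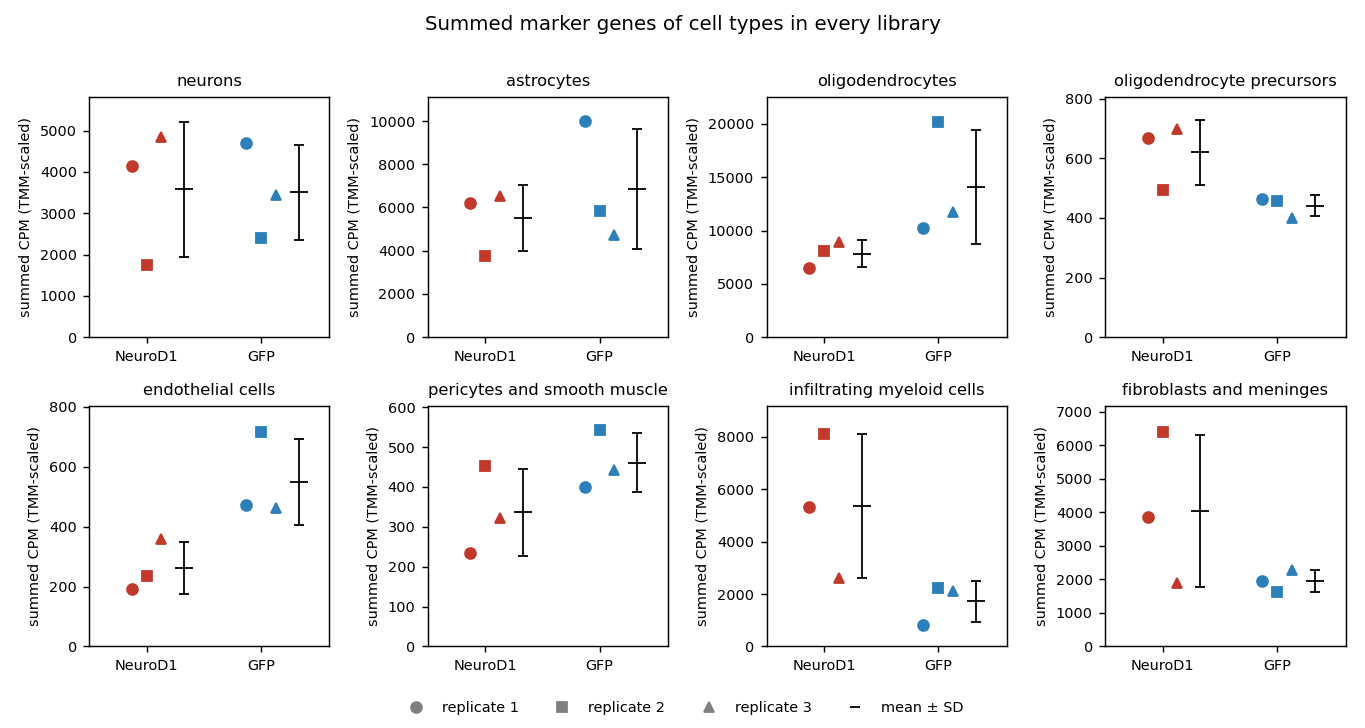
Summed CPM of cell type marker lists, 1 symbol per library, with mean ± SD (n = 3), NeuroD1 left of GFP; axes start at 0. Neuronal sums overlap between groups, endothelial and oligodendrocyte sums are lower in every NeuroD1 library, and NeuroD1 replicate 2 is highest for fibroblast and myeloid markers.

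The genes whose levels followed each member most closely over the 6 libraries were found by Pearson's r on log2 CPM, among 12558 or 12559 genes averaging over 5 CPM. For Bdnf they were Plxna4 (r = 0.994) and Pcnxl4 (0.992), for Ntrk2 Arhgef26 (0.997) and Ppm1f (0.995), and for Ntrk3 Tm4sf1 (0.998) and Ndufa13 (0.997). For Ngfr they were Papd4 and Mphosph10 (both 0.999), for Gfra1 Lrtm2 (0.996) and Extl1 (0.994), and for Ret Mvd (0.960) and Eif2ak2 (0.946). These are the highest of all those values over 6 libraries in 2 groups, and describe the libraries only.

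The other genes of both pathways were taken as 6 lists, with 88 genes in the table, of which 80 were tested. At an unadjusted edgeR p under 0.05, 11 were higher and 8 lower with NeuroD1, which is 23.8% of them, against 24.0% of all tested genes. None passed after adjustment by edgeR's quasi-likelihood test. DESeq2 called 2 higher and 3 lower, against 8.91% of 15332 genes called in either direction. The groups did not overlap for 19 genes, which is 23.8% of those tested, against 29.6% of all tested genes. The median log2 fold change was 0.22.

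Among the other ligands and receptors, 1 of 6 tested genes was higher and 2 were lower at an unadjusted edgeR p under 0.05. Over all tested genes 12.5% were higher and 11.5% lower. Gdf15, a stress-induced ligand that signals through RET with the co-receptor GFRAL, averaged 5.74 ± 4.09 CPM with NeuroD1 and 1.91 ± 0.496 CPM with GFP. Its log2 fold change was 1.58 (SE 0.54, adjusted p = 0.154 by edgeR), and 0.83 without NeuroD1 replicate 2. Its receptor gene Gfral was listed at 0 in every library. Gfra4, the persephin co-receptor gene, averaged 23.8 ± 11.5 CPM with NeuroD1 and 41.0 ± 3.93 CPM with GFP. The neurturin gene Nrtn averaged 1.06 ± 0.286 CPM with NeuroD1 and 2.50 ± 1.43 CPM with GFP. Nrtn had 14, 8 and 15 counts in NeuroD1 replicates 1, 2 and 3, against 15, 31 and 17 in GFP replicates 1, 2 and 3. Its log2 fold change was -1.21 (adjusted p = 0.198 by edgeR), and -0.66 without GFP replicate 2. Ntf5, the gene of another TrkB ligand, was too low to be tested.

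Genes of precursor processing and the sortilin co-receptors, which sort and cut proneurotrophins, had a median log2 fold change of 0.54. Of 14 tested genes, 3 were higher and 0 lower at an unadjusted edgeR p under 0.05. Over all tested genes the median was 0.02, with 12.5% higher and 11.5% lower. The sorting receptor gene Sorl1 averaged 131.5 ± 72.3 CPM with NeuroD1 and 51.4 ± 31.2 CPM with GFP. Mmp9, a protease that can cut proBDNF, averaged 3.34 ± 1.38 CPM with NeuroD1 and 1.49 ± 0.406 CPM with GFP. The adjusted p by edgeR was 0.167 for Sorl1 and 0.186 for Mmp9. The log2 fold change of Sorl1 was 1.35 with all libraries. With single libraries left out it ranged from 0.83 (without NeuroD1 replicate 1) to 1.96 (without GFP replicate 1). Sort1, which pairs with p75 to bind precursors, was at 443.9 ± 96.1 CPM with NeuroD1 and 321.6 ± 85.8 CPM with GFP (adjusted p = 0.332 by edgeR).

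Partners of p75 gave 0 of 11 tested genes at an unadjusted edgeR p under 0.05, against 24.0% of all tested genes. Their median log2 fold change was 0.01. The 3 with the smallest p were Rtn4, the Nogo gene (549.1 ± 110.8 CPM with NeuroD1 and 373.6 ± 88.6 CPM with GFP), the p75-binding adaptor gene Maged1 (346.4 ± 18.8 CPM with NeuroD1 and 270.7 ± 24.3 CPM with GFP) and the Nogo receptor gene Rtn4r (46.6 ± 22.4 CPM with NeuroD1 and 69.5 ± 10.96 CPM with GFP). Their adjusted p by edgeR was 0.260, 0.321 and 0.355.

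Among 23 adaptors and signalling genes of Trk and RET, 1 was higher and 1 lower at an unadjusted edgeR p under 0.05. DESeq2 called both. Of all tested genes 12.5% were higher and 11.5% lower in edgeR, and DESeq2 called 8.91%. Frs3, a docking protein gene for activated Trk receptors, had 8.81, 8.32 and 13.2 CPM in NeuroD1 replicates 1, 2 and 3, against 18.1, 22.8 and 17.2 CPM in GFP replicates 1, 2 and 3. These groups did not overlap (log2 fold change -0.94, adjusted p = 0.139 by edgeR and 0.0373 by DESeq2). Irs2, an insulin receptor substrate gene, averaged 29.8 ± 9.89 CPM with NeuroD1 and 10.9 ± 8.36 CPM with GFP (log2 fold change 1.44, adjusted p = 0.159 by edgeR and 0.0496 by DESeq2). With single libraries left out the log2 fold change of Irs2 ranged from 1.10 (without GFP replicate 3) to 2.27 (without GFP replicate 1). Shc2, an adaptor gene, had the next smallest p, at 23.8 ± 9.02 CPM with NeuroD1 and 37.7 ± 4.65 CPM with GFP (adjusted p = 0.214 by edgeR).

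Transcripts that respond to neurotrophins went both ways, with 4 of 14 higher and 2 lower at an unadjusted edgeR p under 0.05. Their median log2 fold change was 0.06. Over all tested genes 12.5% were higher and 11.5% lower. Cort, a neuropeptide gene of interneurons, was scarce, with 6, 0 and 4 counts in NeuroD1 replicates 1, 2 and 3. GFP replicates 1, 2 and 3 had 14, 21 and 15 counts. Cort averaged 0.270 ± 0.239 CPM with NeuroD1 and 1.95 ± 0.747 CPM with GFP. Its log2 fold change was -2.73 (adjusted p = 0.138 by edgeR and 0.0218 by DESeq2). Dusp6, a phosphatase gene induced by ERK signalling, averaged 107.1 ± 53.4 CPM with NeuroD1 and 54.3 ± 10.7 CPM with GFP, and Egr2, an immediate-early gene, averaged 7.60 ± 5.34 CPM with NeuroD1 and 2.80 ± 1.12 CPM with GFP. Without NeuroD1 replicate 2 their log2 fold changes were 0.52 and 0.75, against 0.98 and 1.45 with all libraries.

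Of 12 regulators of Bdnf transcription, 2 were higher and 3 lower at an unadjusted edgeR p under 0.05. Over all tested genes 12.5% were higher and 11.5% lower. Npas4, an activity-dependent factor that acts on Bdnf promoters, had 0.829, 3.77 and 2.96 CPM in NeuroD1 replicates 1, 2 and 3, against 5.27, 15.4 and 11.4 CPM in GFP replicates 1, 2 and 3. Every NeuroD1 library was below every GFP library (log2 fold change -2.09, adjusted p = 0.139 by edgeR and 0.0115 by DESeq2). Mef2d, another activity-regulated factor gene, averaged 107.2 ± 21.4 CPM with NeuroD1 and 54.7 ± 18.1 CPM with GFP (log2 fold change 0.97, adjusted p = 0.139 by edgeR and 0.0265 by DESeq2). Rest, a repressor of neuronal genes, averaged 12.9 ± 4.28 CPM with NeuroD1 and 6.03 ± 3.14 CPM with GFP (adjusted p = 0.177 by edgeR).

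**Figure D5:**
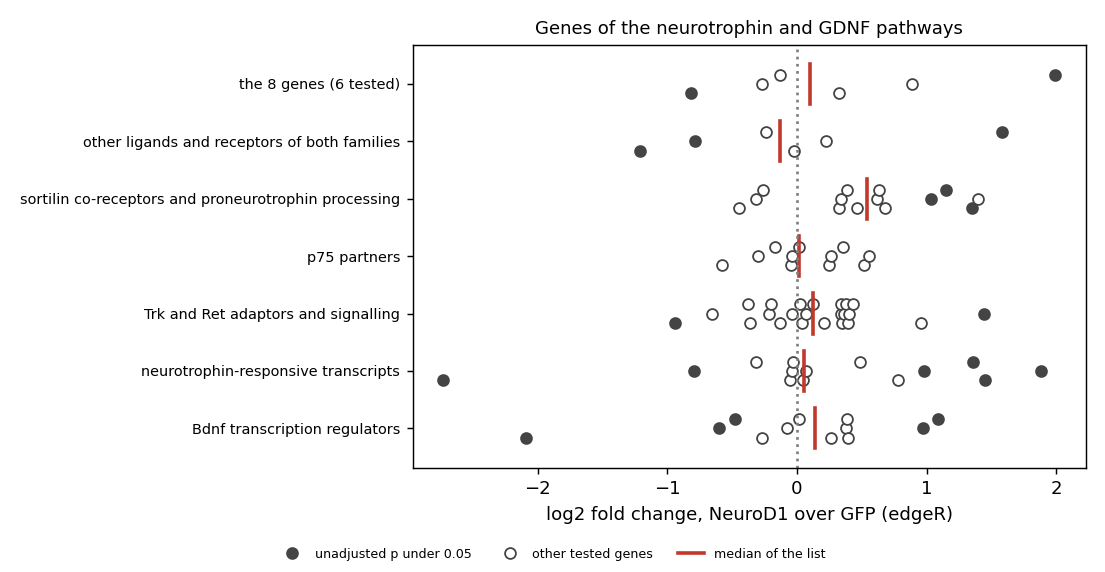
Log2 fold change (NeuroD1 over GFP, edgeR) of each tested gene in the 8 genes and the 6 further lists, with filled circles for an unadjusted p under 0.05 and red bars for medians. Filled circles lie on both sides of 0 in most lists, and the precursor processing list has the highest median, 0.54.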

How the data were processed

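RNA from mouse cortex was sequenced in 6 libraries, 3 NeuroD1_MCAO and 3 GFP_MCAO, grouped by their titles. The authors deposited raw counts for each gene symbol, from featureCounts with mm10 genes per the file headers. The submitters' processing notes list HISAT2 2.0.1, DESeq2 1.16.1 and GRCm38, with no roles. For strand setting and read filters the sources used here give nothing. Columns were matched to samples by the labels' descriptions. Every gene was fitted with edgeR 4.0.16 (R 4.3.3; TMM scaling, filterByExpr with minimum count 10 and minimum total 15, quasi-likelihood F-test, treatment as the only term). Benjamini-Hochberg adjustment ran over every tested gene, and the threshold was 0.05. Standard errors came from the F statistic, and 95% intervals from the test's degrees of freedom. Single values were also compared by exact permutation of log2(CPM + 0.5). Alternatives were DESeq2 1.42.0, limma-voom (limma 3.58.1), other scalings, filters and thresholds, a robust prior, a replicate block, and each library left out. DESeq2 with a library left out was added after the data were seen. The tests were tested on simulated data. The genes and lists were chosen with earlier results of these data known. All 8 genes are named. Of each further list the 3 with the smallest p are, and Sort1, Pmp2, Ntf5, Gfral, Lum, Dcn and Pdgfra were named after their values were seen. Some genes that this rule or the lists hold are not reported here. Coordinates and exon lengths are from GENCODE M21 (GRCm38), and promoter sequences from RefSeq (GRCm38.p6). No library was a duplicate, since pairs within a group differed by 33.8 to 126.3 chi-square units for each gene, far above sampling noise. Pairs between groups differed by 29.05 to 165.0 units. The most alike pair of all was NeuroD1 replicate 3 and GFP replicate 1 (29.05).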

Additional observations from a re-analysis of the deposited data

How the results depend on the processing

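Counts of all genes at an adjusted p under 0.05 were 0 with edgeR, 1366 with DESeq2 and 479 with the replicate block. Without 1 library they were 0 to 1 with edgeR and 165 to 2394 with DESeq2, a set of fits chosen after seeing the data (251 and 999 without NeuroD1 replicates 1 and 2, 2045 and 225 without GFP replicates 1 and 3). At an unadjusted p under 0.05 edgeR gave 3564 genes, or 1804 to 4374 without 1 library (2015 without NeuroD1 replicate 1, 1804 without GFP replicate 2, 1891 without GFP replicate 3), and DESeq2 without 1 library gave 2164 to 4506 (2248 without NeuroD1 replicate 1, 2314 without GFP replicate 3). Of the 8 genes, 0 passed the adjusted threshold in edgeR whichever library was left out. DESeq2 called 1, and 0 to 2 without 1 library. Unadjusted counts among them were 2, 1 with the stricter filter, which drops Ngfr, 2 to 3 without 1 library in edgeR and 1 to 3 in DESeq2. Groups of 2 genes did not overlap, 1 with the stricter filter and 2 to 3 without 1 library. Ngfr had a log2 fold change of 2.01 with DESeq2 (adjusted p = 0.0220), and without 1 library 1.25 to 2.35 with edgeR and 1.28 to 2.37 with DESeq2 (2.321 without GFP replicate 1). Ntrk3 gave -1.003 to -0.66 and -0.99 to -0.64 (-0.947 without GFP replicate 1), and Bdnf 0.38 to 1.29 and 0.39 to 1.31. Ntrk2 changed sign without NeuroD1 replicate 2 (0.09; 0.10 with DESeq2) and without GFP replicate 1 (0.17; 0.20 with DESeq2), ranging from -0.27 to 0.17 with edgeR and -0.25 to 0.20 with DESeq2. Gfra1 changed sign without NeuroD1 replicate 2 (0.0040; 0.0213 with DESeq2), from lowest values of -0.44 and -0.43. The cause was not tested.

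Same-numbered libraries had deviations correlated at r = 0.54, 0.37 and 0.04 (replicates 1, 2 and 3). Each NeuroD1 library correlated best with its same-numbered GFP library, while GFP replicate 3 correlated best with NeuroD1 replicate 2 (0.13). The numbers were not taken as pairs because no label ties a replicate number to a shared animal or batch. These correlations cannot decide whether the libraries were paired. The replicate block called 0 of the 6 tested genes and 479 of all genes. Of the further pathway genes named it called Sorl1 and Npas4 (adjusted p = 0.0447 each) and Irs2 and Mef2d (0.0455 each), which edgeR without the block did not call. RLE and upper quartile scaling kept the direction of each of the 6 tested genes. Ntf3 and Gdnf had at most 22 counts in a library, so only large differences could be seen in them.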
